A study of Mus musculus with 12 samples.

Results

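Replication-dependent histone genes were followed in mouse embryonic fibroblasts that had or had not been given the reprogramming factors called SKO in the labels. Members were the probe sets whose platform annotation lists only genes with symbols starting H1f1 to H1f5, H2ac, H2bc, H3c or H4c and a number; older symbols of the Hist1h to Hist4h form were used for genes listed beside these. This gave 50 of the 28853 probe sets in the deposited table, of which 26 list 1 gene and 24 list several. Together they name 50 genes, 44 on chromosome 13 and 6 on chromosome 3. Of the 50, 7 shared H2B probe sets also list H4bc24, whose older RefSeq symbol is that of an H2B gene. A pair of H2A probe sets that also list genes outside the rule, among them H2ax, was left out. So were H2aw, H2bu2 and H4f16, which have older symbols of the Hist3h or Hist4h form but no current symbol of the rule; none of these 3 genes passed for SKO or day in either direction.

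RNA was measured on 12 whole-transcript microarrays, 1 for each combination of SKO, virus and day. Fibroblasts came from a cross of OG2 with 129/sv. Each culture was infected with retrovirus carrying microRNA cluster B, microRNA cluster C or nothing further (the blank control), and it was lysed on day 8 or day 4, counted from the first infection. The 6 cultures with SKO, taken here as Sox2, Klf4 and Oct4 since the labels do not spell it out, had received these factors as well. The 6 cultures without SKO had received virus alone and were grown in the same embryonic stem cell medium. The titles of the cultures without SKO carry the label group 2 and those with SKO name no group, so SKO and group cannot be told apart. A free description repeated on all arrays names another culture and day, and the groups were taken from the titles. The labels do not say what clusters B and C contain. They also do not say whether cultures were separate experiments, so p-values measure only the spread between these arrays.

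Replication-dependent histone genes supply the core histones H2A, H2B, H3 and H4 and the linker histones H1 that package newly copied DNA. They lie in clusters, are transcribed in S phase with the help of Npat, and give mRNAs that end in a stem-loop bound by Slbp instead of a poly(A) tail. Several genes encode the same protein from nearly the same sequence. Labelling of total RNA for whole-transcript arrays does not depend on a poly(A) tail, so these mRNAs can be read.

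The near identity of the genes limits what a probe set can name. Shared probe sets list between 2 and 15 genes each, and a probe set with 1 listed gene may also pick up its neighbours' mRNA, so every value below is uncertain as to the gene. The 50 probe sets carry 32 different gene lists and 48 different profiles, since shared H2B sets 6 and 7 held the same values and so did shared H4 sets 2 and 3. By family there were 4 H1, 4 H2A, 16 H2B, 13 H3 and 12 H4 probe sets, and 1 that lists H2bc6 with H1f4. The arrays' medians lay between 4.98 and 5.07 on the log2 scale, and the members' values ran from 2.10 to 12.21. Mean levels were at or above 5 for 44 members. H3c7, with a mean of 2.39, was the member that lay below the lower quartile of every array, which was 3.48 to 3.68.

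As checks of the labels, the mean of 6 pluripotency markers was 5.52 to 7.98 on the arrays with SKO, against 4.11 to 4.44 on those without. At day 4 only Pou5f1, the gene of the delivered factor Oct4, passed among these 6 markers, 3 of the 6 were above 0, and the median difference was -0.02. At day 8 5 of the 6 were higher and the median difference was 1.54. Sox2 is a delivered factor too on the reading of SKO given above. Much of the day 8 rise lay on the cluster C array with SKO. Dppa5a read 10.22 there, against 6.82 with cluster B and 6.61 with blank virus. Nanog read 8.08 there, against 6.39 and 6.34, while Pou5f1 read 11.60, against 11.87 and 11.63. The mean of 8 fibroblast markers was 10.07 to 10.35 with SKO, against 11.02 to 11.16 without. The mean of 6 macrophage and leukocyte markers was 4.75 to 4.91 with SKO, against 4.68 to 5.31 without. For 4 endothelial markers the means were 4.98 to 5.31 with SKO and 4.07 to 4.37 without, a gap carried by Tek alone (3.87 ± 0.12 at day 4 and 3.58 ± 0.12 at day 8), since Pecam1, Cdh5 and Kdr did not pass at either day. They were for 4 skeletal muscle markers 4.73 to 5.28 with SKO and 5.27 to 5.69 without. A mean of 3 germ cell markers, at 2.90 to 3.01 with SKO and 2.91 to 3.43 without, lay below every array's lower quartile. RMA values are not zero for any gene, so absence cannot be read from them, and in bulk RNA fewer cells of a type cannot be told apart from less RNA per cell.

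**Figure D1:**
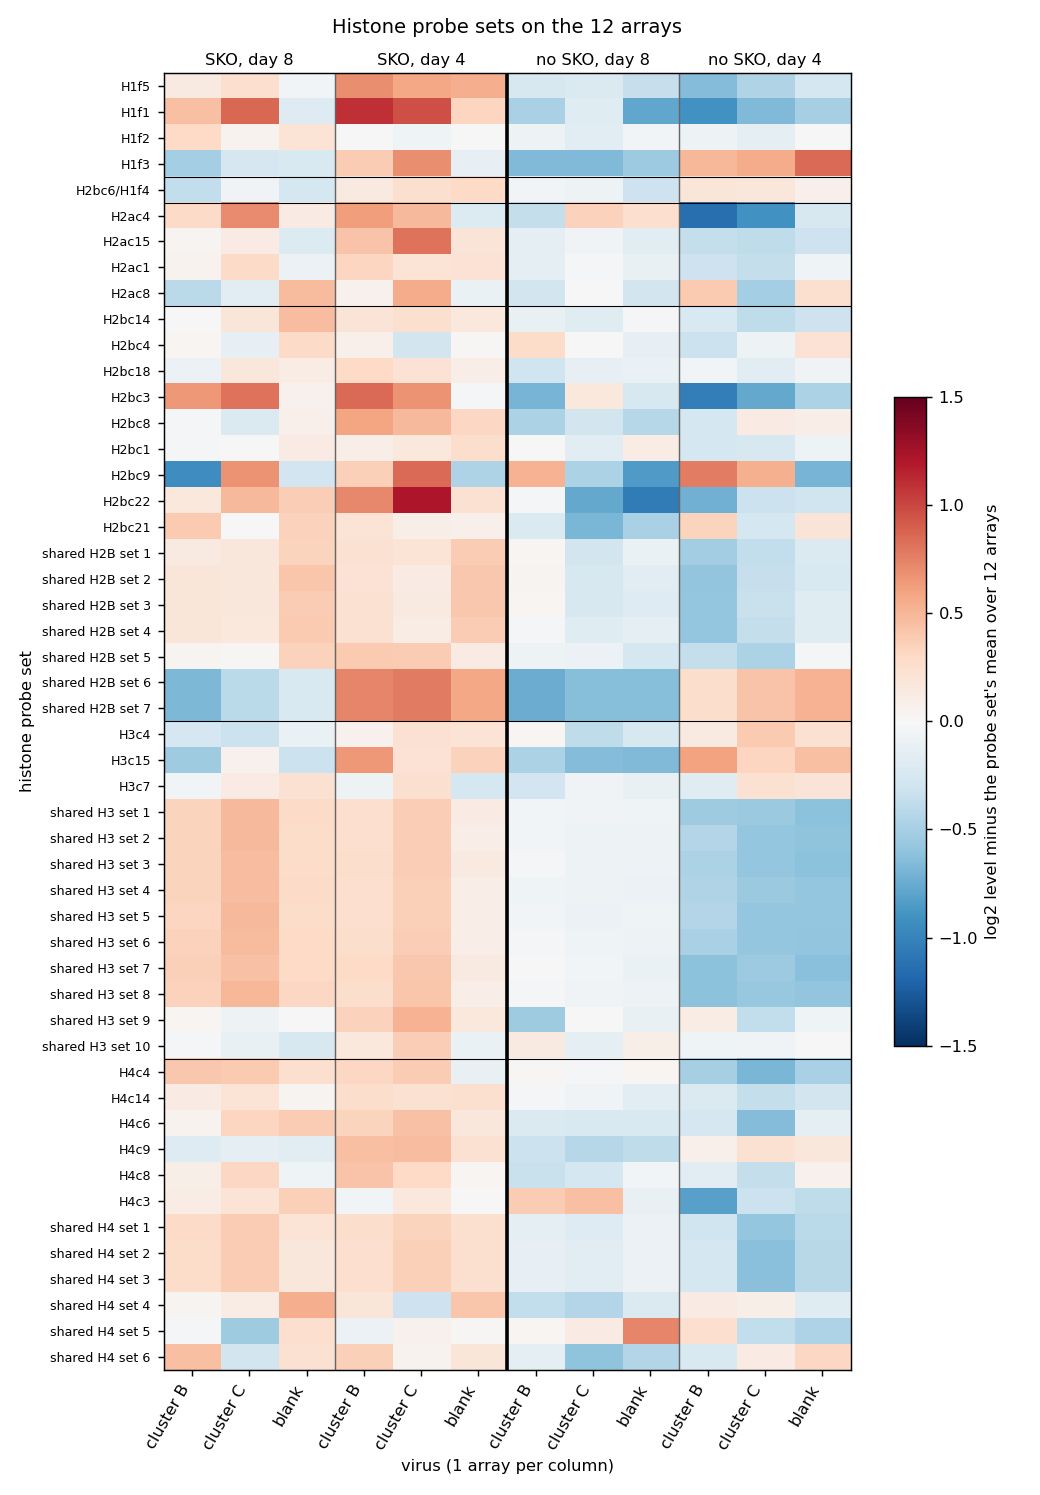
Each row is 1 of the 50 histone probe sets and each column 1 of the 12 arrays; colour gives the log2 level minus that probe set's mean over the 12 arrays. Shared H3 sets 1 to 8 were above their mean on all 6 arrays with SKO and lowest on the 3 arrays without SKO at day 4, and shared H2B sets 6 and 7 were above their mean at day 4 and below it at day 8 in both arms.

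With SKO at day 4, most histone probe sets were higher than without it. Of the 50, 31 were higher and 0 lower at a limma adjusted p under 0.05, against a background of 9.21% called higher and 8.51% called lower, 17.7% in all, among the 23410 annotated probe sets. The median difference of the members was 0.54 on the log2 scale, where 1 is a 2-fold change, and that of all probe sets was -0.03. A difference above 0 was measured for 45 members, against 45.1% of all probe sets. For 34 members the 3 arrays with SKO lay entirely above or below the 3 without, which held for 32.6% of all probe sets. Among the 26 members with a mean at or above 8, 22 were called higher, with a median difference of 0.71. Among the other 24, 9 were called higher and the median was 0.25. Shares for all probe sets of these levels were not counted, and the mean takes in the arrays being compared. The brighter members also hold shared H3 sets 1 to 8, which list the same genes, so the split does not show an effect of level.

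Among linker histones, 2 of 4 probe sets were higher. H1f1, which encodes the subtype H1.1, read 9.91, 9.78 and 9.14 with SKO at day 4 (values in this order are for cluster B, cluster C and blank virus, here and below), against 7.91, 8.16 and 8.32 without SKO. All 3 arrays with SKO were above all 3 without, and the difference was 1.48 ± 0.17 (SE of the fit, n = 3 arrays each, limma adjusted p = 0.000439). H1f5, which encodes H1.5, read 11.01, 10.89 and 10.86 with SKO, against 9.66, 9.85 and 10.05 without. Again the groups did not overlap, and the difference was 1.07 ± 0.12 (limma adjusted p = 0.000413). The other pair of H1 probe sets did not pass. H1f2, the gene of the subtype H1.2, averaged 8.00 with SKO and 7.96 without (difference 0.04 ± 0.09, limma adjusted p = 0.818). H1f3, the gene of H1.3, averaged 4.90 with SKO and 5.21 without (difference -0.31 ± 0.16, limma adjusted p = 0.245).

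In the H2A family 3 of 4 probe sets were higher with SKO at day 4. H2ac4 read 7.67, 7.54 and 6.84 with SKO, against 5.92, 6.14 and 6.81 without. The array with SKO and blank virus lay only just above the array without SKO and with blank virus, and over all viruses the difference was 1.06 ± 0.17 (limma adjusted p = 0.00291). H2ac15 read 6.91, 7.31 and 6.68 with SKO, against 6.14, 6.10 and 6.18 without. The groups were apart on every array, with a difference of 0.83 ± 0.10 (limma adjusted p = 0.000789). H2ac1, the gene of the H2A form known from testis, differed by 0.49 ± 0.12 (limma adjusted p = 0.0222), and its H2B partner gene H2bc1 by 0.36 ± 0.09 (limma adjusted p = 0.027). H2ac8 averaged 3.99 with SKO and 3.86 without, and did not pass.

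Of the 16 H2B probe sets, 10 were higher with SKO at day 4. H2bc3 read 7.40, 7.22 and 6.53 with SKO, against 5.51, 5.78 and 6.07 without. Every array with SKO was above every array without, and the difference was 1.26 ± 0.15 (limma adjusted p = 0.000478). H2bc22 read 5.42, 5.92 and 4.94 with SKO, against 3.98, 4.38 and 4.40 without, with a difference of 1.17 ± 0.26 (limma adjusted p = 0.0154). H2bc14 read 8.33, 8.39 and 8.30 with SKO, against 7.91, 7.77 and 7.83 without. It showed little spread between viruses, and the difference was 0.50 ± 0.12 (limma adjusted p = 0.0172). Shared H2B sets 1 to 5, which list 14 or 15 genes each, were higher by 0.58 to 0.64.

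Genes known to give polyadenylated transcripts as well did not pass at day 4. This list holds H1f2, H2bc4 and H2bc21, whose mRNAs are known from cells that no longer divide. H2bc4 averaged 8.08 in both groups (difference -0.00 ± 0.16, limma adjusted p = 0.998). H2bc21 read 4.58, 4.46 and 4.45 with SKO, against 4.71, 4.12 and 4.57 without, with overlap (difference 0.04 ± 0.11, limma adjusted p = 0.873). The deposited values hold no separate reading of polyadenylated and stem-loop forms.

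For H3, 8 of 13 probe sets were higher with SKO at day 4, and all 8 are among the 10 shared sets that list the same 12 genes. Shared H3 set 7 read 11.78, 11.88 and 11.62 with SKO, against 10.87, 10.93 and 10.86 without. Its values differed by less between viruses than between the arms, and the difference was 0.87 ± 0.09 (limma adjusted p = 0.000296). Shared H3 sets 1 to 8 had differences of 0.76 to 0.87, and since they list the same genes they are not 8 independent readings. Shared H3 sets 9 and 10 did not pass, at 0.45 ± 0.18 and 0.19 ± 0.11. None of the 3 H3 probe sets with 1 listed gene passed. H3c4 averaged 6.49 with SKO and 6.58 without, H3c15 4.54 with SKO and 4.59 without, and H3c7 2.36 with SKO and 2.47 without.

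Of the 12 H4 probe sets, 8 were higher with SKO at day 4. H4c4 read 10.25, 10.32 and 9.82 with SKO, against 9.45, 9.26 and 9.46 without. The groups did not overlap, and the difference was 0.75 ± 0.11 (limma adjusted p = 0.00149). Shared H4 set 1, which lists 11 genes, read 11.06, 11.13 and 11.03 with SKO, against 10.51, 10.21 and 10.39 without, a difference of 0.70 ± 0.10 (limma adjusted p = 0.00116). H4c3 lay nearest the threshold among all members that passed, with a difference of 0.54 ± 0.16 (limma adjusted p = 0.0494). Without the array with SKO and cluster B at day 4, 19 members passed in place of 31, and with 1 probe set per gene list 19 of 32 passed.

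Promoters are shown for the single-gene probe set with the largest difference with SKO at day 4 in each family; no H3 gene is shown because none passed. Sequences are RefSeq's for GRCm38.p6, all on the plus strand of chromosome 13, and give the 250 bases before the annotated start, 5′ to 3′. H1f1 lies at chr13:23763418-23763667, H2ac4 at chr13:23750838-23751087, H2bc3 at chr13:23746484-23746733 and H4c4 at chr13:23581318-23581567. Capitals mark matches, on either strand, to ATTTGCAT (the octamer known as the Pou2f1 binding site of H2B promoters), TATAAA (the TATA box), CCAAT (the CCAAT box), AAACACA (the H1 box) and GTCCG (part of an element bound by HINFP in human H4 promoters). The TATAAA match begins 10 bases before the annotated start in H2bc3, against 33 in H1f1, 41 in H2ac4 and 32 in H4c4. Whether the match in H2bc3 serves that start was not tested.
H1f1: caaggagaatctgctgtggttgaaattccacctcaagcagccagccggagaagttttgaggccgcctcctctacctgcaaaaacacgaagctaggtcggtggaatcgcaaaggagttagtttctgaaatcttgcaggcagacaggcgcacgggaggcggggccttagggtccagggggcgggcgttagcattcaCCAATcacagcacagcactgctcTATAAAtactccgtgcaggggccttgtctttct
H2ac4: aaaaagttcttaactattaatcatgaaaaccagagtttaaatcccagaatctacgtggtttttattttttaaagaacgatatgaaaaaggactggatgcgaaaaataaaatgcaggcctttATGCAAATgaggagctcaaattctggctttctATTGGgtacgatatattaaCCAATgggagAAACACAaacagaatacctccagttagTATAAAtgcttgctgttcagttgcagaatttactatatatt
H2bc3: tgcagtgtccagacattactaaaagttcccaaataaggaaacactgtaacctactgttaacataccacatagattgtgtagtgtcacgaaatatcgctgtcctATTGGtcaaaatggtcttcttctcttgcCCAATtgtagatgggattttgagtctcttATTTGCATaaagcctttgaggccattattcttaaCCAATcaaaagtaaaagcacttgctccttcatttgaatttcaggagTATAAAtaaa
H4c4: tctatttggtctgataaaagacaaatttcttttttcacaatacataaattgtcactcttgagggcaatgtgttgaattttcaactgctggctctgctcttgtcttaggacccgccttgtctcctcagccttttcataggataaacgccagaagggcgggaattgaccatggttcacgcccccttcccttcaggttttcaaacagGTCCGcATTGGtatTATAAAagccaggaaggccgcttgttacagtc

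Motifs were counted over windows that also took in the 50 bases after the start. RefSeq held 46 such promoters for 45 of the 50 genes. The octamer was found in 7 of 16 H2B and 3 of 4 H2A promoters, in 0 of 5 H1, 0 of 10 H3 and 0 of 11 H4 promoters, and in 1.74% of all 32851 RefSeq promoters. Windows of neighbouring H2A and H2B genes overlap, as for H2ac1 with H2bc1 and H2ac8 with H2bc8. A match in such an overlap counts in both families. GTCCG was found in 11 of 11 H4 promoters and in 23.4% of all promoters. AAACACA was found in 4 of 5 H1 promoters, against 7.18% of all, but the H1f1 promoter above holds no match. TATAAA was found in 58.7% and CCAAT in 82.6% of the histone promoters, against 13.6% and 37.4% of all. Among H2B genes with a probe set and promoter of their own, the 5 with an octamer had differences of 0.29 to 1.26 with SKO at day 4. The other pair, with no match in the window, were H2bc22 at 1.17 and H2bc9 at 0.05. These matches are a description of the letters and were not tested against the expression values.

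**Figure D2:**
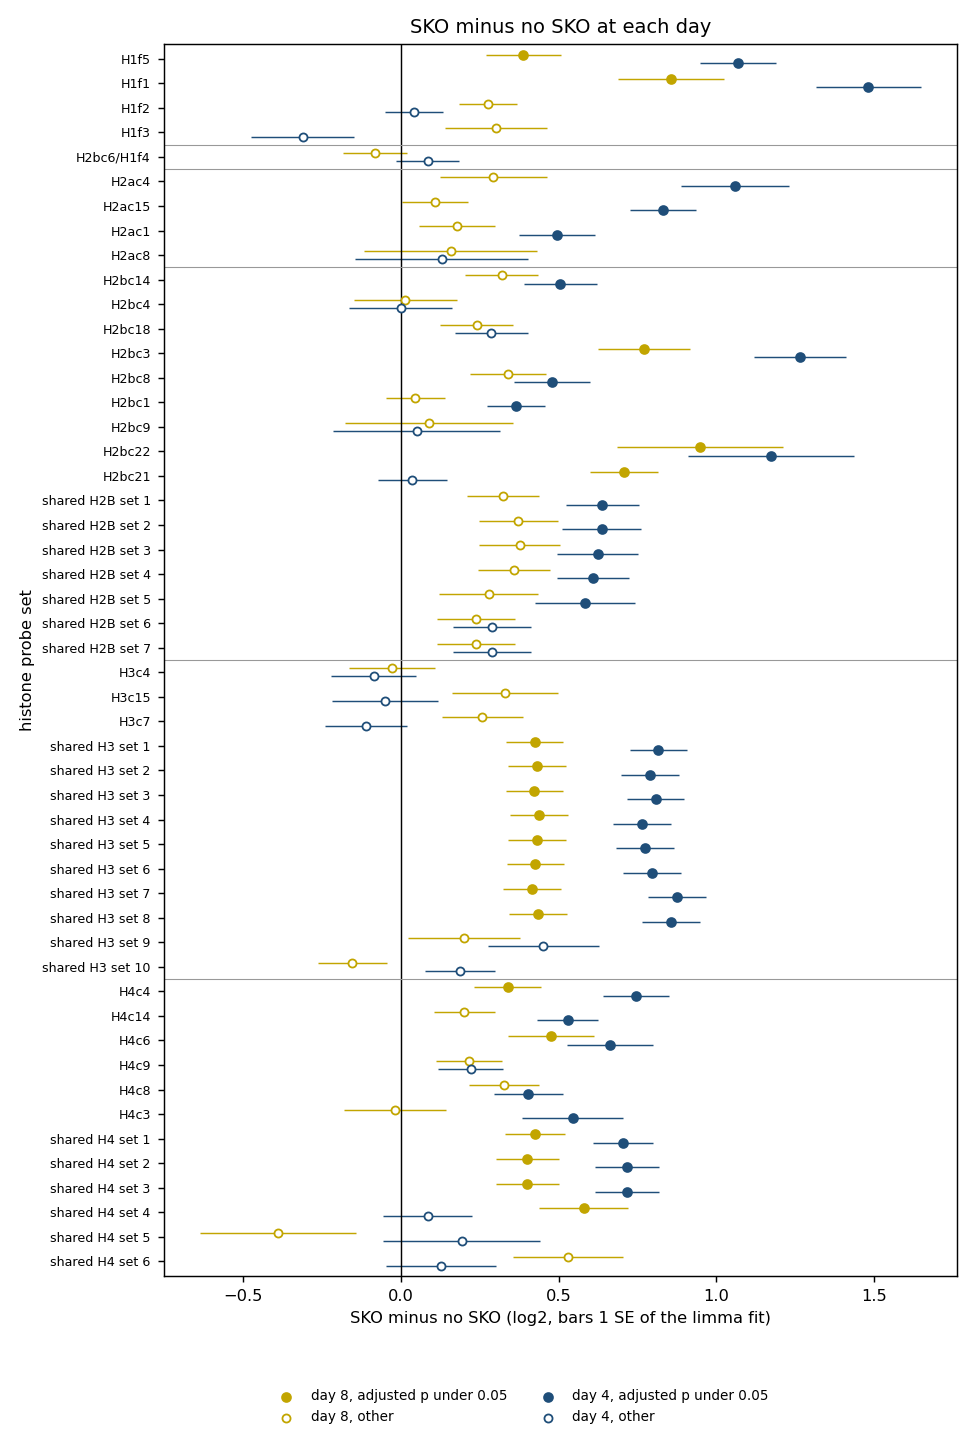
Points give SKO minus no SKO on the log2 scale for each histone probe set at day 8 and day 4, bars 1 SE of the limma fit, and filled points an adjusted p under 0.05. At day 4 31 members passed and at day 8 19, all of them above 0, and the largest difference was 1.48 for H1f1 at day 4.

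At day 8, fewer histone probe sets were higher with SKO. Of the 50, 19 were higher and 0 lower at a limma adjusted p under 0.05, beside 13.1% called higher and 11.7% called lower, 24.8% in all, among all probe sets. The median difference of the members was 0.33, and that of all probe sets -0.06. A difference above 0 was again measured for 45 members, against 42.2% of all probe sets. The arrays with and without SKO did not overlap for 30 members, against 44.2% of all probe sets. By family, 2 of 4 H1, 0 of 4 H2A, 3 of 16 H2B, 8 of 13 H3 and 6 of 12 H4 probe sets passed.

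H1f1 read 9.27, 9.68 and 8.62 with SKO at day 8, against 8.34, 8.64 and 8.04 without. Its groups overlapped slightly, since the blank array with SKO lay below the cluster C array without, and the difference was 0.86 ± 0.17 (limma adjusted p = 0.0061). H2bc22 had the largest difference of all members, with 4.85, 5.19 and 5.07 with SKO against 4.68, 3.94 and 3.65 without (0.95 ± 0.26, limma adjusted p = 0.03). H2bc3 read 7.20, 7.36 and 6.61 with SKO, against 5.85, 6.71 and 6.30 without (0.77 ± 0.15, limma adjusted p = 0.00506). All 3 of these genes had smaller differences at day 8 than at day 4, but for none of them did the change of the difference pass the test given below.

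H2bc21 was the exception among the genes with polyadenylated transcripts. It read 4.77, 4.37 and 4.72 with SKO at day 8, against 4.16, 3.69 and 3.89 without. The groups did not overlap, and the difference was 0.71 ± 0.11 (limma adjusted p = 0.00167). Its levels without SKO were just above the arrays' lower quartile. H1f2 averaged 8.21 with SKO and 7.94 without (0.28 ± 0.09, limma adjusted p = 0.0615), and H2bc4 8.21 with SKO and 8.19 without (0.01 ± 0.16, limma adjusted p = 0.962).

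Shared H3 sets 1 to 8 were higher by 0.42 to 0.44 with SKO at day 8. Set 7 read 11.84, 11.92 and 11.78 with SKO, against 11.47, 11.44 and 11.38 without, so the groups were apart and the spread within each was small. Among H4 probe sets, shared H4 set 4 differed by 0.58 ± 0.14 (limma adjusted p = 0.0176) and H4c6 by 0.48 ± 0.14 (limma adjusted p = 0.0334). H4c4 lay just inside the threshold, with 10.34, 10.33 and 10.19 with SKO against 9.96, 9.92 and 9.96 without (0.34 ± 0.11, limma adjusted p = 0.0472). H1f5 also passed, at 0.39 ± 0.12 (limma adjusted p = 0.0449). The count changed when single arrays were left out. Leaving out the blank array with SKO at day 8 gave 3, leaving out the cluster C array of that arm and day gave 11. It was 12 without either the blank or the cluster C array without SKO at day 8. With 1 probe set per gene list, 9 of 32 passed.

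Between day 8 and day 4, the histone probe sets did not all move in the same direction in either arm. With SKO, 0 were higher and 9 lower at day 8, beside 4.86% called higher and 3.53% called lower, 8.39% in all, among all probe sets. The median difference was -0.06, and -0.01 over all probe sets. Groups did not overlap for 13 members, against 28% of all probe sets. Without SKO, 11 were higher and 6 lower, beside 3.95% called higher and 4.79% called lower, 8.74% in all, among all probe sets. There the median was 0.19, against 0.01 over all probe sets, and the groups did not overlap for 25 members, against 30.2% of all. Of the 26 members with a mean at or above 8, 23 were above 0 without SKO, with 9 called higher and 0 lower. Of the 24 others, 8 were above 0 and 16 below, with 2 called higher and 6 lower. The brighter members hold shared H3 sets 1 to 8, and shares for all probe sets of these levels were not counted.

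Of the 9 members that fell with SKO, 8 had a mean level below 8. Shared H2B sets 6 and 7, with 1 profile between them, read 4.76, 5.02 and 5.20 at day 8 with SKO, against 6.16, 6.20 and 6.01 at day 4. No day 8 array reached a day 4 array, and the difference was -1.13 ± 0.12 (limma adjusted p = 0.0013). The same sets read 4.69, 4.79 and 4.79 at day 8 without SKO, against 5.69, 5.86 and 5.95 at day 4, a difference of -1.08 ± 0.12 (limma adjusted p = 0.00225). Shared H2B sets 1, 2, 3 and 4, whose gene lists are the same or lack H2bc1, had differences of -0.06 to 0.01 with SKO and 0.23 to 0.27 without, none past the threshold. Probe sets with the same or nearly the same gene list therefore gave different day differences.

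H1f3, the gene of H1.3, fell by day 8 in both arms. It read 4.07, 4.33 and 4.36 at day 8 with SKO, against 4.96, 5.28 and 4.46 at day 4 (difference -0.65 ± 0.16, limma adjusted p = 0.044). Without SKO it read 3.91, 3.92 and 4.03 at day 8, against 5.08, 5.13 and 5.43 at day 4, a wider gap (difference -1.26 ± 0.16, limma adjusted p = 0.00341). H3c15 fell by 0.67 ± 0.17 with SKO (limma adjusted p = 0.0454) and by 1.05 ± 0.17 without (limma adjusted p = 0.00868). At day 8 without SKO it read 3.66, 3.49 and 3.48, about the arrays' lower quartile of 3.48 to 3.68. H1f3 lay not far above that quartile there, so the sizes of the falls of H3c15 and H1f3 are uncertain. H4c9 fell by 0.54 ± 0.10 with SKO (limma adjusted p = 0.0161) and by 0.53 ± 0.10 without (limma adjusted p = 0.0177). Day 8 and day 4 arrays of these 3 genes did not overlap in either arm.

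Further members fell with SKO, and for these the difference without SKO missed the threshold. H2bc8 fell by 0.52 ± 0.12 with SKO (limma adjusted p = 0.0337), and without SKO the difference was -0.38 ± 0.12. The probe set of H2bc6 and H1f4 fell by 0.45 ± 0.10 with SKO (limma adjusted p = 0.0294), and without SKO the difference was -0.28 ± 0.10. H1f5 read 10.45, 10.57 and 10.28 at day 8 with SKO, against 11.01, 10.89 and 10.86 at day 4. The groups did not overlap (difference -0.49 ± 0.12, limma adjusted p = 0.0403), and without SKO the difference was 0.19 ± 0.12. H2ac15 fell by 0.49 ± 0.10 with SKO (limma adjusted p = 0.0244), and without SKO the difference was 0.23 ± 0.10. No member passed upward with SKO; the highest were H1f2 at 0.21 ± 0.09 (limma adjusted p = 0.217), H4c3 at 0.18 ± 0.16 and H4c4 at 0.15 ± 0.11, all short of the threshold.

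Without SKO, the members that rose by day 8 were H2ac4, H4c3, H4c4 and 8 shared H3 sets. H2ac4 read 6.69, 7.39 and 7.30 at day 8, against 5.92, 6.14 and 6.81 at day 4. The groups overlapped, since cluster B at day 8 was below blank virus at day 4, and the difference was 0.84 ± 0.17 (limma adjusted p = 0.0209). H4c3 read 5.54, 5.60 and 5.05 at day 8, against 4.35, 4.83 and 4.77 at day 4 (0.75 ± 0.16, limma adjusted p = 0.0259). H4c4 read 9.96, 9.92 and 9.96 at day 8, against 9.45, 9.26 and 9.46 at day 4 (0.56 ± 0.11, limma adjusted p = 0.016). Shared H3 sets 1 to 8 rose by 0.45 to 0.55 without SKO and had differences of 0.09 to 0.13 with SKO. H2bc21 fell by 0.55 ± 0.11 without SKO (limma adjusted p = 0.0188), against a difference of 0.12 ± 0.11 with SKO.

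**Figure D3:**
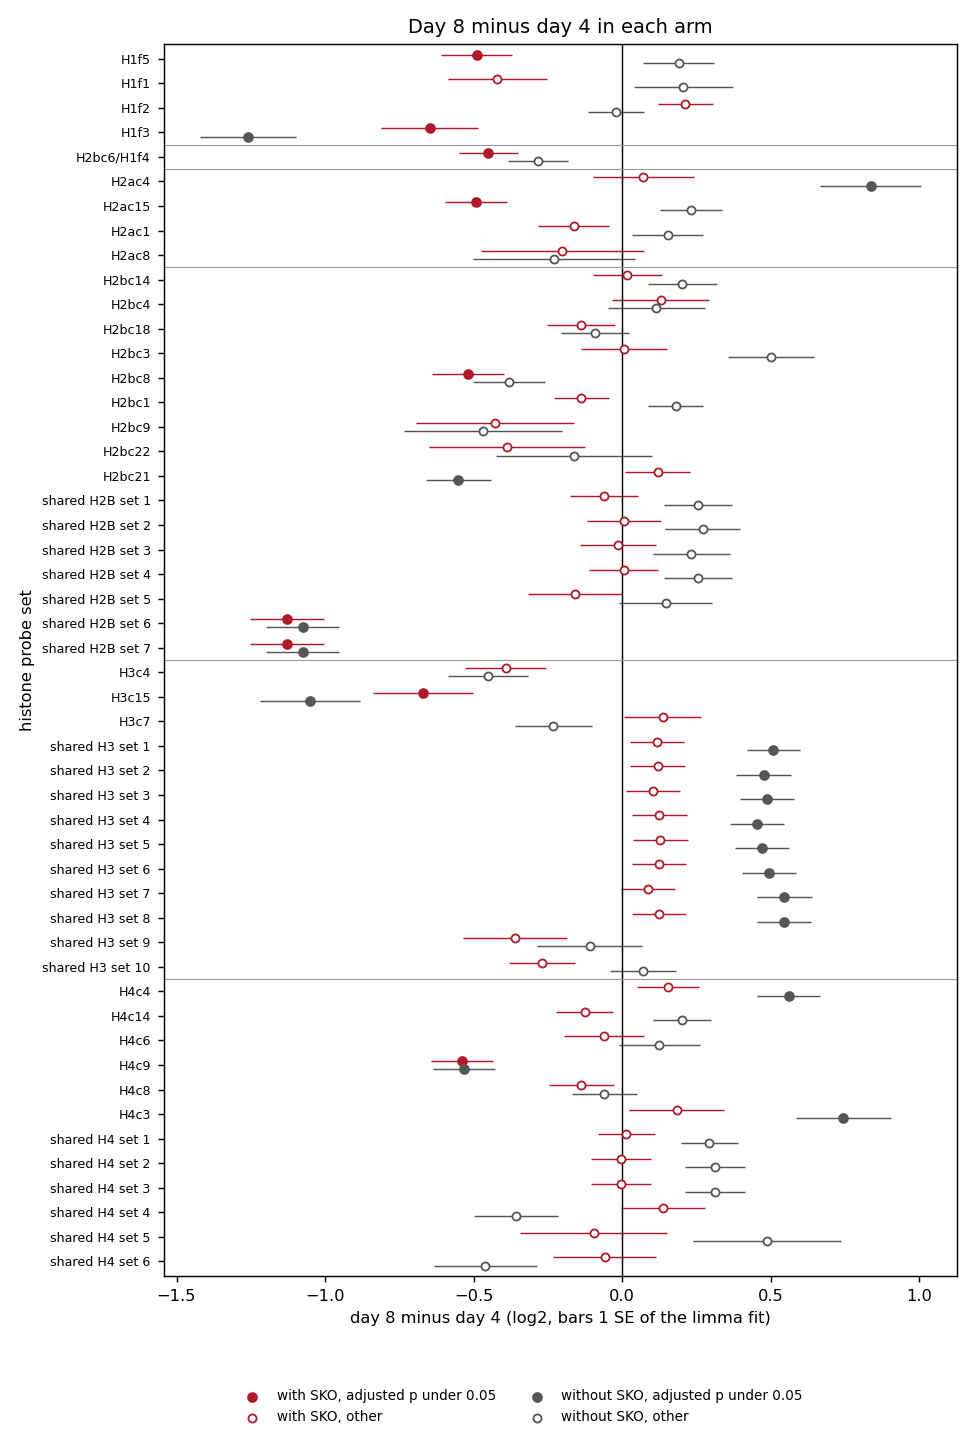
Points give day 8 minus day 4 on the log2 scale for each histone probe set with and without SKO, bars 1 SE of the limma fit, and filled points an adjusted p under 0.05. Shared H2B sets 6 and 7 were lower at day 8 in both arms, at -1.13 with SKO and -1.08 without, while shared H3 sets 1 to 8 were higher without SKO by 0.45 to 0.55.

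Both counts of members that changed with day rested on single arrays. With SKO the count of 9 was 2 without the cluster B array of either day, 3 without the cluster C array of either day and 4 without the blank array of either day, all with SKO. It was also 4 without either cluster C array of the arm without SKO. Without SKO the count of 17 was 4 without the cluster B or cluster C array of either day and 5 without the blank array of either day, all from that arm.

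The change with day was then compared between the arms. The day difference with SKO minus that without SKO had a median of -0.27 over the 50 members, against -0.02 over all probe sets. It was below 0 for 39 of the 50, among them the 10 shared H3 sets, which list the same genes. It was above 0 for 11, against 47.3% of all probe sets. It passed for 1 member, which was below 0, beside 0.944% of all probe sets called lower, 1.71% called higher and 2.66% in all, so the share among members was near the background in this fit. At an unadjusted p under 0.05 there were 20 members, and the share of all probe sets at that level was not counted. The member that passed after adjustment was H2ac15, at -0.72 ± 0.15 (limma adjusted p = 0.0429), and leaving out any 1 of the 12 arrays gave a count of 0. The count depended on the settings, with 3 members after a filter on dim probe sets and 12, all lower and among them H1f5 and shared H3 sets 1 to 8, with a trend and robust empirical Bayes. Other members with low values were H2ac4 at -0.77 ± 0.24 (limma adjusted p = 0.149), H1f5 at -0.68 ± 0.17 (limma adjusted p = 0.0788) and H1f1 at -0.63 ± 0.24 (limma adjusted p = 0.225). The highest were H2bc21 at 0.67 ± 0.15 (limma adjusted p = 0.0613) and H1f3 at 0.61 ± 0.23 (limma adjusted p = 0.22). None of these 5 passed in the fit reported, so a call in 1 arm and not in the other is not shown to be a difference between the arms.

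MicroRNA clusters were compared with blank virus within each arm over the 2 days, which serve as 2 matched pairs. No member passed in any of these 4 comparisons. Few probe sets of any kind did, with 0.00427% of all for cluster B with SKO, all lower, 0.0171% for cluster C with SKO, of which 0.0128% were higher, and 0% for both without SKO. The arrays of cluster and blank virus did not overlap for 17 members for cluster B and 26 for cluster C with SKO, against 24.7% and 28.3% of all probe sets. Without SKO this held for 7 members for cluster B and 11 for cluster C, against 24.3% and 22.7% of all. At an unadjusted p under 0.05 there were 3 members for cluster B and 8 for cluster C with SKO, and 3 for each without SKO. The share of all probe sets at this unadjusted level was not counted, so these counts have no background and are not read as results. Cluster B and cluster C were set against the same blank arrays in each arm, and their values below are not independent.

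**Figure D4:**
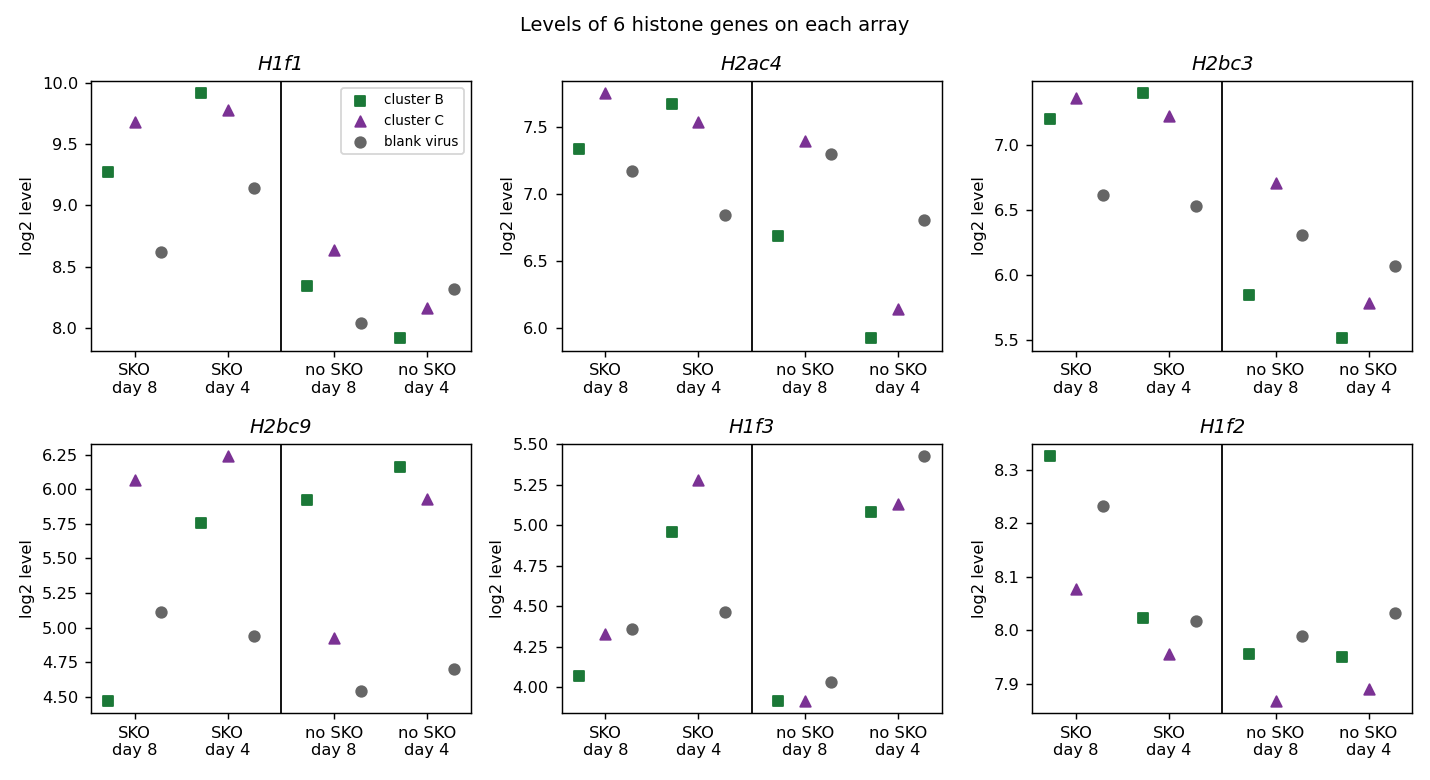
Log2 levels of H1f1, H2ac4, H2bc3, H2bc9, H1f3 and H1f2 on each of the 12 arrays, by arm, day and virus; the vertical axes differ between panels and do not start at 0. With SKO, both clusters lie above blank virus on both days for H1f1 and H2bc3, while H1f2 stays between 7.87 and 8.33 on all arrays.

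H1f1 and H2bc3, the members with the largest SKO differences at day 4, were among the 3 with the highest cluster differences with SKO. These readings are not independent, since the SKO difference averages over the viruses and takes in the cluster arrays. Between the blank arrays alone, 1 per arm, the day 4 difference was 0.82 for H1f1 and 0.46 for H2bc3. It was 0.81 for H1f5 and 0.67 to 0.76 for shared H3 sets 1 to 8, so H2bc3 lay below these members there. H1f1 with SKO averaged 9.59 with cluster B and 9.73 with cluster C, against 8.88 with blank virus. Cluster B differed by 0.71 ± 0.21 (limma unadjusted p = 0.00755, short of the threshold after adjustment), with 0.65 and 0.77 in the matched pairs. Cluster C differed by 0.85 ± 0.21 (limma unadjusted p = 0.00274, adjusted p = 0.593), with 0.64 and 1.06 in the pairs. H2bc3 with SKO averaged 7.30 with cluster B and 7.29 with cluster C, against 6.57 with blank virus. The differences were 0.73 ± 0.18 for cluster B and 0.72 ± 0.18 for cluster C, higher in 2 of 2 pairs each and both short of the limma threshold, with an adjusted p of 0.613 for cluster C. H2ac4 was the other of the 3 highest for cluster B, at 0.49 ± 0.21.

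H2bc9, an H2B gene, had the highest cluster difference in 3 of the 4 comparisons. With SKO it read 4.47 with cluster B, 6.07 with cluster C and 5.11 with blank virus at day 8, and 5.76 with cluster B, 6.24 with cluster C and 4.94 with blank virus at day 4. Without SKO it read 5.92, 4.92 and 4.54 at day 8, and 6.16, 5.93 and 4.70 at day 4. Cluster C exceeded blank virus on all 4 occasions and cluster B on 3 of them, the exception being day 8 with SKO. The differences were 1.13 ± 0.32 for cluster C with SKO (adjusted p = 0.613), 1.42 ± 0.32 for cluster B without SKO (adjusted p = 0.762) and 0.80 ± 0.32 for cluster C without SKO (unadjusted p = 0.0365), none past the limma threshold.

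The lowest cluster differences with SKO were in shared H4 set 4, at -0.57 ± 0.17 for cluster C and -0.37 ± 0.17 for cluster B. H2ac8 and shared H2B set 2 followed for cluster B, at -0.36 and -0.22, and shared H4 set 5 and H2bc4 for cluster C, at -0.37 and -0.355. Without SKO, H2ac4 averaged 6.30 with cluster B and 7.05 with blank virus, a difference of -0.75 ± 0.21 (adjusted p = 0.762). H2bc3 without SKO differed by -0.50 ± 0.18 for cluster B, so that for cluster B these 2 genes were above blank virus with SKO and below it without. Other members at the ends of the lists without SKO were H2bc22 at 0.31, H2bc21 at 0.20 and H3c7 at -0.28 for cluster B. For cluster C without SKO they were H4c3 at 0.31, H1f1 at 0.22, H2bc21 at -0.33, H4c8 at -0.32 and H2ac4 at -0.29.

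The opposite signs were tested as a difference of the cluster effects between the arms, a test added after the values had been seen. For cluster B it was 1.25 ± 0.30 for H2ac4 and 1.23 ± 0.25 for H2bc3 (limma adjusted p = 0.885 for both), and for H2bc9 it was -1.33 ± 0.46. For cluster C it was 0.92 ± 0.30 for H2ac4 and 0.66 ± 0.25 for H2bc3. No member and 0% of all probe sets passed for either cluster, while 5 members for cluster B and 6 for cluster C had an unadjusted p under 0.05. For that unadjusted level, too, the share of all probe sets was not counted.

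Other genes of the cell cycle and of histone supply were read beside the histones. As background to all list counts below, 17.7% of all probe sets passed for SKO at day 4 and 24.8% at day 8. For day 8 against day 4 the shares were 8.39% with SKO and 8.74% without. Of 34 measured S phase genes, 27 were higher and 0 lower with SKO at day 4, with a median difference of 0.67, and 9 were higher and 0 lower at day 8, with a median of 0.21. The highest at day 4 was Rrm2, a subunit of ribonucleotide reductase, at 1.44 ± 0.09 (limma adjusted p = 2.2e-05), followed by the helicase subunit Mcm6 at 1.04 ± 0.12. At day 8 the highest was Dut, which removes dUTP, at 1.09 ± 0.11 (limma adjusted p = 0.000118). At day 8 against day 4, 0 S phase genes were higher and 15 lower with SKO (median -0.47), and 1 was higher and 0 lower without SKO (median -0.00). Beside these, shared H3 sets 1 to 8 had passed upward without SKO and had not passed with SKO.

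Of 19 measured mitosis genes, 13 were higher and 0 lower with SKO at day 4, and 5 were higher and 0 lower at day 8. Among all probe sets, 9.21% were called higher and 8.51% lower at day 4, and 13.1% higher and 11.7% lower at day 8. Mki67, the proliferation marker, read 8.86, 8.28 and 8.60 with SKO at day 4, against 7.39, 7.58 and 7.46 without. The groups did not overlap, with a difference of 1.11 ± 0.17 at day 4 (limma adjusted p = 0.00229) and 0.78 ± 0.17 at day 8 (limma adjusted p = 0.0104). At day 8 against day 4, 11 mitosis genes were lower with SKO and 8 without, and 0 were higher in either arm. These proliferation genes moved with SKO beside the histones, and their part in the histone differences was not tested. Of the 8 fibroblast markers 6 were lower with SKO at each day. Of 6 macrophage and leukocyte markers 1 was higher and 1 lower with SKO at day 4, and 1 was higher and 5 lower at day 8. Of 4 endothelial markers 1 was higher at each day, of 4 skeletal muscle markers 1 was lower at each day, and of 3 germ cell markers 0 passed at day 4 and 2 were lower at day 8. The part of these cell types in the histone differences was not tested.

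**Figure D5:**
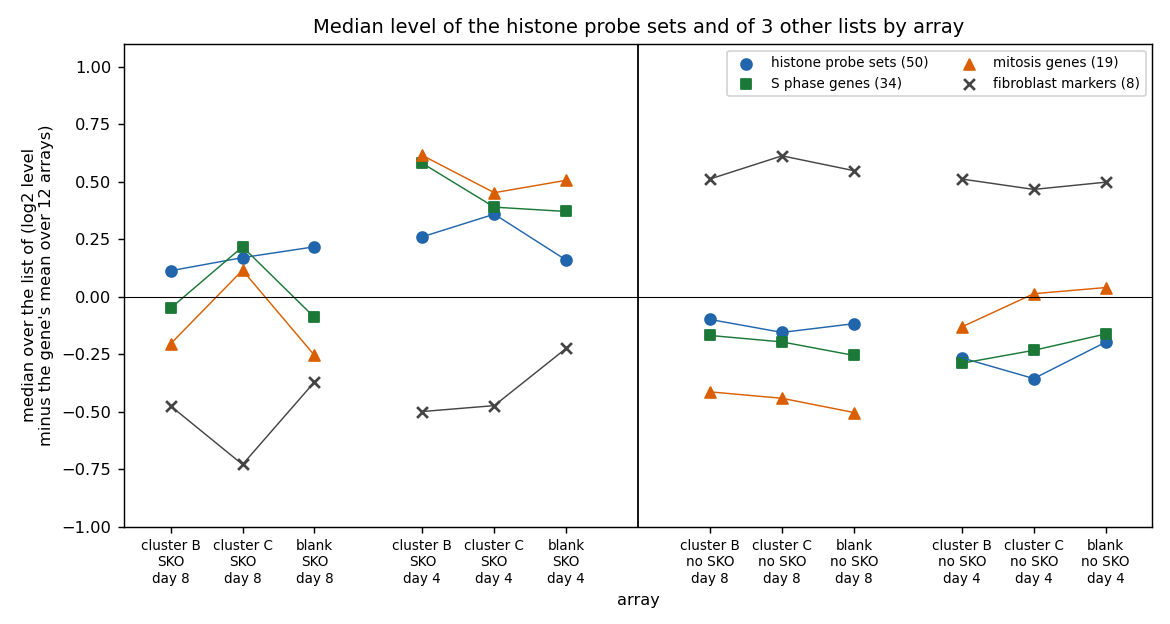
Points give, for each array, the median over a list of the log2 level minus the gene's own mean over the 12 arrays; lines join the viruses of 1 arm and day. The histone median ran from 0.11 to 0.36 on the 6 arrays with SKO, against -0.36 to -0.10 on the other 6, while the mitosis median was lower at day 8 than at day 4 in both arms.

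Genes that transcribe and process histone mRNA moved in both directions. Of 21 measured, 5 were higher and 2 lower with SKO at day 4, with a median of 0.17, and 0 passed at day 8, where 15 of the 21 were above 0. Beside these counts stand the 17.7% of all probe sets that passed at day 4 and the 24.8% at day 8. Slbp, the stem-loop binding protein, read 8.21, 8.02 and 7.81 with SKO at day 4, against 7.43, 7.53 and 7.77 without. Its groups did not overlap, but the difference of 0.44 ± 0.14 missed the threshold (limma adjusted p = 0.0683), as did that of 0.21 ± 0.14 at day 8. Npat, the coactivator of histone transcription, differed by 0.04 ± 0.13 at day 4 and 0.10 ± 0.13 at day 8. The 3 highest at day 4 were Ccna2 at 0.66 ± 0.10 and Ccne2 at 0.57 ± 0.12, both cyclins, and Eri1, an exonuclease of histone mRNA decay, at 0.56 ± 0.12. The lower pair were Lsm10, a subunit of the U7 particle that cuts histone mRNA, at -0.41 ± 0.11, and Tut7, a uridylyl transferase, at -0.37 ± 0.09. With SKO, 4 of the 21 fell by day 8 and 0 rose, and 0 changed without SKO.

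Histone chaperones, which carry histones to DNA, were higher with SKO at day 4 for 10 of 22 measured and lower for 0. The highest were Asf1b at 0.93 ± 0.10, Nap1l1 at 0.87 ± 0.17 and Mcm2, which also belongs to the replicative helicase, at 0.84 ± 0.13. At day 8, 4 were higher and 1 lower, beside the 24.8% of all probe sets that passed. The lower one was Ipo4, an importer of histones, at -0.58 ± 0.10. Of 16 histone genes outside the rule, a mixed list of variant, germline and other forms that holds H2aw, H2bu2 and H4f16 as well, 3 were higher and 1 lower with SKO at day 4, beside the 17.7% of all probe sets that passed. These were H2az1 at 1.44 ± 0.11, Cenpa at 0.76 ± 0.12 and H2ax at 0.45 ± 0.12, with Macroh2a2 at -0.56 ± 0.14. At day 8 H2az1 was higher by 1.67 ± 0.11 (limma adjusted p = 1.16e-05). Some genes stand on more than 1 of these lists, among them Slbp, Ccne2 and Mcm2.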

How the data were processed

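The values are on a log2 scale as deposited. Per the submitters' processing notes the authors used RMA, a method that corrects background, normalizes arrays against each other and summarises the probes of a set, and Partek. Not given in the sources used here are versions, genome build and annotation version. Per the labels' protocols, 100 ng of total RNA was labelled by a whole-transcript sense method, after removal of feeder cells. There are no read counts behind the values, precision rests on how many arrays there were, and RMA would hide a shift of most genes at once. The table held 0 value columns that belong to no sample.

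Gene names came from the platform annotation: 21789 probe sets had 1 gene, 1621 several and 5443 none. The 23410 with a gene were tested together with limma 3.58.1 in R 4.3.3. A fit over all 12 arrays had 8 coefficients (SKO, day and virus, and SKO by day and by virus), 4 residual and 4.63 prior degrees of freedom. Its residual spread, with a median SD of 0.152 (0.139 over the members), is how far virus effects differ between days. P-values were adjusted by Benjamini-Hochberg within each of 11 comparisons, with a threshold of 0.05. Levels are in deposited log2 units, fold changes are differences of them, and means per group come from the arrays.

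Named were the members past the threshold, up to 10 highest and 10 lowest per comparison, otherwise the 3 highest and 3 lowest; of other lists up to 3 and 3, with Slbp, Npat and Mki67. H2bc14, H2ac1, H2bc1, H2ac8, H3c4, H3c7, H3c15 and H1f3 at day 4, the split at a mean of 8 and the promoter motifs were chosen with values seen. The members, the lists and the tests were chosen with earlier results of these data known. The fit was tested on simulated data. Promoters came from RefSeq of GRCm38.p6. Python 3.11.15, pandas 2.3.3 and matplotlib 3.10.9 were used for tables and figures. Alternatives are given in the closing section.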

Additional observations from a re-analysis of the deposited data

Results flagged for a closer look

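The day difference of H2ac15 differed between the arms: the day 8 minus day 4 value with SKO minus that without SKO was -0.72 on the log2 scale, by the interaction term of the limma fit (adjusted p = 0.0429). H2ac15 was lower at day 8 in 3 of 3 viruses with SKO and higher at day 8 in 3 of 3 without. The share of all probe sets past this test was 2.66%, and 1 of 50 members is no more than that. The call was lost when any 1 of the 12 arrays was left out, with virus effects free by day, and in the additive fit, which called H2bc21 instead; with all probe sets tested it was lost too. No group held the 4 arrays needed to look for an array far from its replicates.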

How the results depend on the processing

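The labels carry no replicate numbers, so no fit had a replicate block; arrays were matched by virus and day, which are terms of the fit. All 268 recomputed medians over the members kept within the median residual SD of the fit, 0.152. That SD exceeds several of the medians, which could change sign and still lie within it. With each array left out in turn, the median for cluster B with SKO ran from -0.02 to 0.12. Of 268 recomputed counts, 219 lay within 1.5 times the value reported and 49 did not. The 219 include all counts of the cluster comparisons, which were 0 in every run. All 49 belong to the comparisons of SKO and day. No member passed in any cluster comparison under any alternative run. For SKO at day 4, with 31 members reported, the count was 15 with 1 probe set per single gene, 19 with 1 probe set per gene list (chosen after seeing the data) and 2 at a minimum change of 1.5-fold. For SKO at day 8, with 19 reported, these counts were 7, 9 and 0. For day with SKO, with 9 reported, the count was 3 with each arm fitted alone, 5 with virus effects free by day and 0 at 1.5-fold. For day without SKO, with 17 reported, it was 7 with 1 probe set per single gene, 8 per gene list and 0 at 1.5-fold. The counts with 1 probe set per single gene or per gene list cover fewer probe sets, which lowers them by construction. For the difference of the day changes, with 1 reported, the count was 0 with all probe sets, with virus effects free by day and at 1.5-fold, 3 with a filter on dim probe sets, 2 after quantile normalization (H2ac15 lower and H2bc21 higher) and 12 with a trend and robust empirical Bayes; the additive fit also gave 1, which was H2bc21 at 0.67 and not H2ac15. The cause was not tested. Over all probe sets, a trend and robust empirical Bayes gave 3183, 3366 and 1327 calls for day with SKO, day without SKO and the difference of the day changes, against 1963, 2045 and 622 reported. Without the 7 members that list H4bc24, an alternative also chosen later, 26 and 19 members were higher with SKO at day 4 and day 8. Leaving out each array in turn gave 19 to 32 members for SKO at day 4, 3 to 23 at day 8, 2 to 7 for day with SKO, 4 to 17 for day without SKO and 0 to 0 for the difference of the day changes. Each of these fits had fewer residual degrees of freedom. Apart from the trend and robust setting, calls over all probe sets are not set beside the counts of the alternatives. A lower count is therefore not shown to be particular to the histones. Fitting each arm alone cannot give comparisons between arms, and the test of cluster effects between arms has no additive form. With 12 arrays and no replicates, a difference seen on 1 day counts as error in the fit, and small differences of single genes cannot be resolved.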
